A study of Mus musculus with 16 samples.

Results

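The 10 genes described here encode the enzymes and chaperones that modify and fold procollagen chains in the endoplasmic reticulum (ER). They are the prolyl 4-hydroxylase subunits P4ha1, P4ha2, P4ha3 and P4hb, the lysyl hydroxylases Plod1, Plod2 and Plod3, the prolyl 3-hydroxylation partners P3h1 and Crtap, and the collagen chaperone Serpinh1. They were chosen by name and matched to the mouse gene identifiers in the count files, which list 25719 genes. All 10 were present, and all 10 were among the 14803 genes that passed the expression filter.

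RNA was sequenced from tail tendon fascicles, the collagen fibre bundles of the tail, in 16 libraries. Of these, 8 are labelled wild type and 8 knockout, and the series describes the knockout as ScxCre;Vhlf/f, in which Cre recombinase driven by the tendon gene Scx removes the floxed part of Vhl. The labels give neither the age of the mice nor the alleles that the wild type animals carried, and whole fascicles were used with every cell they hold, so cells that never used Scx should keep Vhl in the knockout as well. The series is about HIF1α in tendon. The comparison reads the transcripts of mixed tissue. Only its cells that used Scx should have lost Vhl, whose product marks hydroxylated HIF1α for destruction.

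Collagen chains are hydroxylated while they are still unfolded. Prolyl 4-hydroxylase, a tetramer of catalytic alpha subunits (P4HA1, P4HA2 or P4HA3) and beta subunits (P4HB, also known as protein disulfide isomerase), makes the 4-hydroxyproline that keeps the triple helix stable at body temperature. It is a different enzyme from the prolyl hydroxylases that act on HIF1α, although both use oxygen, iron and 2-oxoglutarate. Lysyl hydroxylases act on lysines: PLOD1 mainly on those of the helix, PLOD2 on those of the telopeptides, from which the hydroxylysine cross-links of stiff tissues form, and PLOD3 also carries glycosyltransferase activity. P3H1 and CRTAP form a complex with cyclophilin B that 3-hydroxylates selected prolines, and SERPINH1 (HSP47) binds the folded triple helix and escorts it from the ER.

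The promoters of the alpha subunit and lysyl hydroxylase genes are shown because these paralogues differed most in their response. RefSeq start sites of GRCm38.p6 were matched for 9 of the 10 genes, all but Plod2. The 250 bases before each start are printed 5′ to 3′ on the gene's own strand. Capitals mark ACGTG or GCGTG, the core letters of hypoxia response elements, on either strand, so CACGT and CACGC are marked too. ACGTG also lies within the E-box CACGTG, and overlapping matches were each counted. P4ha1 lies at chr10:59323046-59323295 on the plus strand, P4ha2 at chr11:54100674-54100923 on the plus strand and P4ha3 at chr7:100285270-100285519 on the plus strand. Plod1 lies at chr4:147936777-147937026 on the minus strand, and Plod3 at chr5:136986769-136987018 on the plus strand.
P4ha1: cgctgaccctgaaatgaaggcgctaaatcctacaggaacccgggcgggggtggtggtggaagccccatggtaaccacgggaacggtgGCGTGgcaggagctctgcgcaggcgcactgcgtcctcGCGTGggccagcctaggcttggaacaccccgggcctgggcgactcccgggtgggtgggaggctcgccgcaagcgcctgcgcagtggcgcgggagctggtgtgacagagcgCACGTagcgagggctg
P4ha2: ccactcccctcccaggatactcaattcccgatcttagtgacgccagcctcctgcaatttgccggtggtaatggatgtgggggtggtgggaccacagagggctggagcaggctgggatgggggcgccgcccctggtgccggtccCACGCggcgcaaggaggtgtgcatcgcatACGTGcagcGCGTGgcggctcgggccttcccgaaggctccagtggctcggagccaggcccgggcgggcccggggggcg
P4ha3: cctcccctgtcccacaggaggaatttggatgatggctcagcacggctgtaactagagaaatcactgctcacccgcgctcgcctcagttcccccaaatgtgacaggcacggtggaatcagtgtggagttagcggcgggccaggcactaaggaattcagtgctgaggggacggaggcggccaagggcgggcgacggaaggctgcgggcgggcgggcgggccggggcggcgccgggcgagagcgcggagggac
Plod1: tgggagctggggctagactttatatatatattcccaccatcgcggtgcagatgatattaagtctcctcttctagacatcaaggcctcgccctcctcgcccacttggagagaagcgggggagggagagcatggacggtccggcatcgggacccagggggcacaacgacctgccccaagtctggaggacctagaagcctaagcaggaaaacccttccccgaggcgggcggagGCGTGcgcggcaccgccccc
Plod3: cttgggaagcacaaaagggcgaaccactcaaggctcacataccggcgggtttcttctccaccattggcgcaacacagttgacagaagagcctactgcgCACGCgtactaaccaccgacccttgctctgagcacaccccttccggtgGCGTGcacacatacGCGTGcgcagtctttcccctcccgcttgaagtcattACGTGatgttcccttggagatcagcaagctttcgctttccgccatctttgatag

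In windows of 300 bases, 250 before and 50 after the start, P4ha2 and Plod3 each held 4 matches, P4ha1, P4hb and Crtap 3, Plod1 2, both start sites of P3h1 2, Serpinh1 1 and P4ha3 none. The first bases of the matches of P4ha2 lie at -107, -78, -69 and 11 from the start, and those of Plod3 at -152, -104, -90 and -54. Of the 32851 promoters in the same table, 43.8% held at least 1 match and 8.93% held at least 3. A match describes letters in this window and not a bound site. Of the transcripts below, P4ha2 and Plod3 rose with 4 matches each, P4hb with 3 and P4ha3 with none. P4ha1 and Crtap fell with 3 each, in calls that did not hold in every fit. Plod1, P3h1 and Serpinh1 did not pass, and Plod2 had no matched start site. A relation between matches and transcripts was not tested.

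Library totals ran from 10792900 to 16379401 counts in the wild type against 10488355 to 18753254 in the knockout, and a detection floor of 3 counts corresponded to at most 0.286 CPM (counts scaled to a common library size). Vhl measured 20.5 CPM ± 3.69 (SD, n = 8) in the wild type against 9.36 ± 1.25 in the knockout, with no overlap between the groups (edgeR quasi-likelihood test, log2 fold change -1.13, adjusted p = 9.64e-08). None of the 9 tendon cell markers was at 0 in any library, and 7 of them were lower in the knockout, against 22.7% of all tested genes. Scx itself ran from 54.6 to 1033 CPM in the wild type against 56.2 to 1251 in the knockout, high in knockout libraries 5, 6 and 8 and wild type library 8. Wild type library 3 stood apart in the collagens: Col1a1 and Col1a2 made up 11.95% of its counts and between 19.7% and 29.2% in the other wild type libraries. Nothing in the labels says that libraries came from separate animals, so p-values measure the spread between these samples, which may be technical. In such bulk tissue, fewer cells of a type and less RNA per cell cannot be told apart.

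Of the 10 genes, 7 passed the threshold of an adjusted p under 0.05. Among all tested genes 48.3% passed it, so a count of 7 is to be read against that background. P4ha2, P4ha3, P4hb, Plod2 and Plod3 rose in the knockout, 5 genes against a background of 25.6% of tested genes. P4ha1 and Crtap fell, 2 genes against 22.7%. Plod1, P3h1 and Serpinh1 did not pass. The libraries of the 2 genotypes did not overlap for P4ha2, P4ha3, Plod2 and Plod3, while 19.4% of all tested genes had no overlap. The median log2 fold change was 0.35 over the 10 genes and 0.02 over all tested genes.

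**Figure D1:**
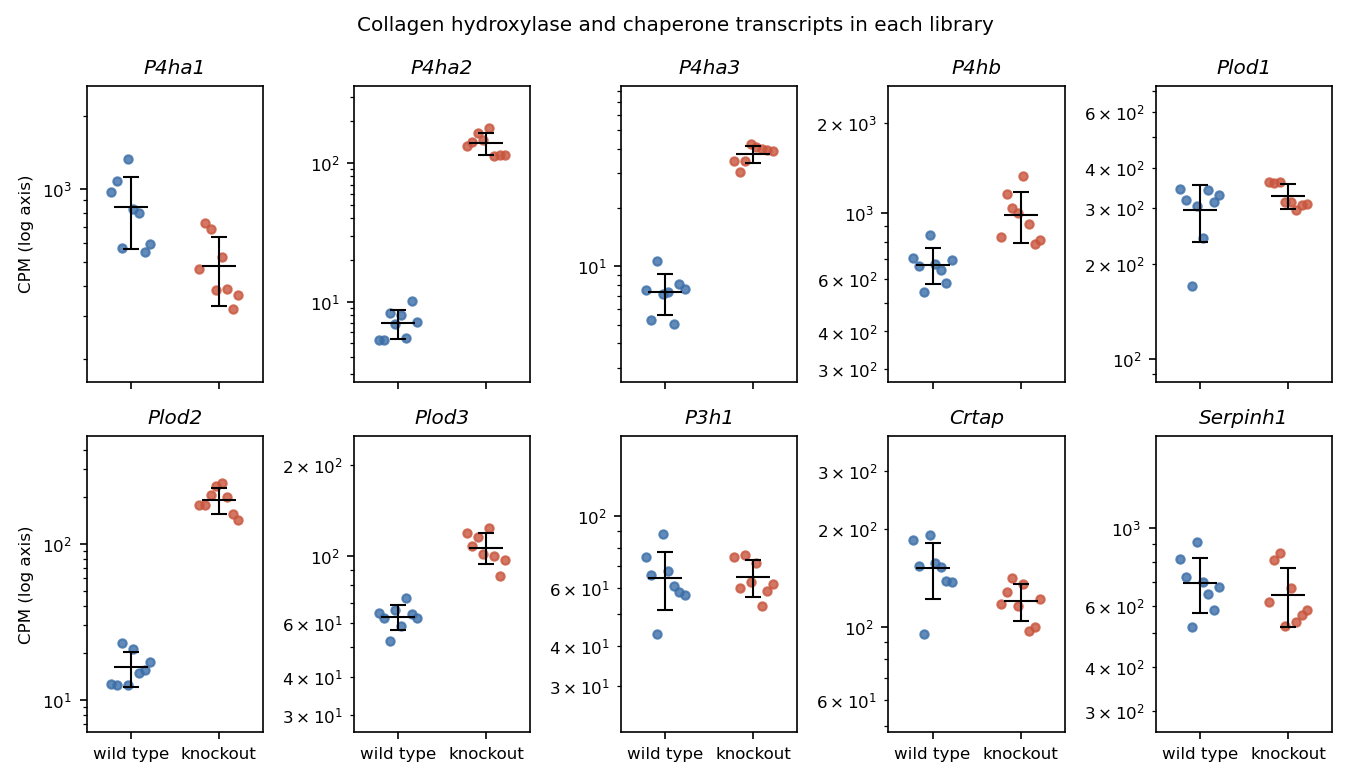
CPM (log axis, scaled per panel) of the 10 genes in each of 8 wild type (blue) and 8 knockout (red) libraries; points are libraries, the long bar is the mean and the whiskers are ± 1 SD. P4ha2, P4ha3, Plod2 and Plod3 show no overlap between genotypes, and wild type library 3 is the lowest blue point of P4hb, Plod1, Plod3, P3h1, Crtap and Serpinh1.

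Among the alpha subunits, the scarce P4ha2 and P4ha3 rose, and P4ha1 fell in a call that did not hold in every fit. P4ha2 measured 5.27 CPM in the lowest, 7.02 in the median and 10.1 in the highest wild type library, against 112, 137 and 180 in the knockout. Every knockout library was more than 10 times above the highest wild type library. The mean went from 7.06 ± 1.70 to 138 ± 24.9 CPM (SD, n = 8 each), a 19.6-fold rise (log2 fold change 4.29, SE 0.15, adjusted p = 5.09e-14). In reads, the wild type values rest on 47 to 106 counts per library and the knockout values on 1343 to 3633.

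P4ha3, the third alpha subunit, rose 5.15-fold. It ran from 5.06 CPM through a median of 7.45 to 10.6 in the wild type against 30.6 through 39.3 to 42.3 in the knockout, again without overlap. Its log2 fold change was 2.37 (SE 0.12, adjusted p = 6.83e-12), on 60 to 136 counts per wild type library and 360 to 830 per knockout library.

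P4ha1, the main alpha subunit of most cells, fell 1.75-fold. It ran from 548 CPM through a median of 816 to 1333 in the wild type against 320 through 428 to 727 in the knockout (log2 fold change -0.80, SE 0.21, adjusted p = 0.00397). The groups overlapped: knockout libraries 2 and 3, at 727 and 684 CPM, lay above wild type libraries 3, 7 and 8, at 575, 548 and 596 CPM. The difference was -0.60 (adjusted p = 0.0567) without the 4 libraries highest in skeletal muscle markers and -0.49 (adjusted p = 0.0316) with total-count scaling. Within the knockout, P4ha1 was highest in library 2, which had the lowest summed endothelial markers (37.7 CPM), and lowest in library 7, which had the highest (508 CPM). Library 7 was also highest in summed skeletal muscle (8912 CPM), mural (1485 CPM) and adipocyte markers (55.9 CPM). The part of each in the level of P4ha1 was not tested.

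P4hb, the beta subunit shared by all 3 tetramers and a protein disulfide isomerase of its own, rose 1.47-fold, from 669 ± 90.4 to 984 ± 189 CPM (log2 change 0.56, SE 0.11, adjusted p = 0.000457). Its ranges overlapped, with 541 to 843 CPM in the wild type against 787 to 1330 in the knockout.

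Because a ratio of 2 genes within a library does not depend on how libraries are scaled, the paralogues were also compared that way. The 18 ratios computed were tested with exact 2-sided permutation of the genotype over the libraries (12870 assignments), whose smallest possible p is 0.000155, and p-values were adjusted over the 18. The P4ha2 count was a median of 0.00833 of the P4ha1 count in the wild type (0.00492 to 0.0184) against 0.301 in the knockout (0.195 to 0.387). That is a mean log2 difference of 5.10 (exact permutation p = 0.000155, the smallest possible, adjusted p = 0.0002). The P4ha3 to P4ha1 ratio rose by 3.18 and the P4ha2 to P4ha3 ratio by 1.92 on the log2 scale, both at the same adjusted p and without overlap, so P4ha2 rose more than P4ha3. Summed alpha subunit counts stood at a median of 1.26 per P4hb count in the wild type against 0.621 in the knockout, a mean 1.87-fold fall without overlap (adjusted p = 0.0002).

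Per kilobase of exon, P4ha1 made up 98.1% ± 0.91 of the alpha subunit signal in the wild type against 76.5% ± 4.62 in the knockout (SD, n = 8 each). P4ha2 went from 0.62% ± 0.31 to 15.0% ± 2.38 and P4ha3 from 1.27% ± 0.62 to 8.51% ± 2.54. P4ha1 thus remained the largest alpha subunit share in all 16 libraries, with at least 71.4% in each knockout library. The share of P4ha2 depends on the length used: the exons of all its transcripts span 6239 bases and its longest transcript 3060 bases, and with the latter it took 25.5% of the knockout signal.

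**Figure D2:**
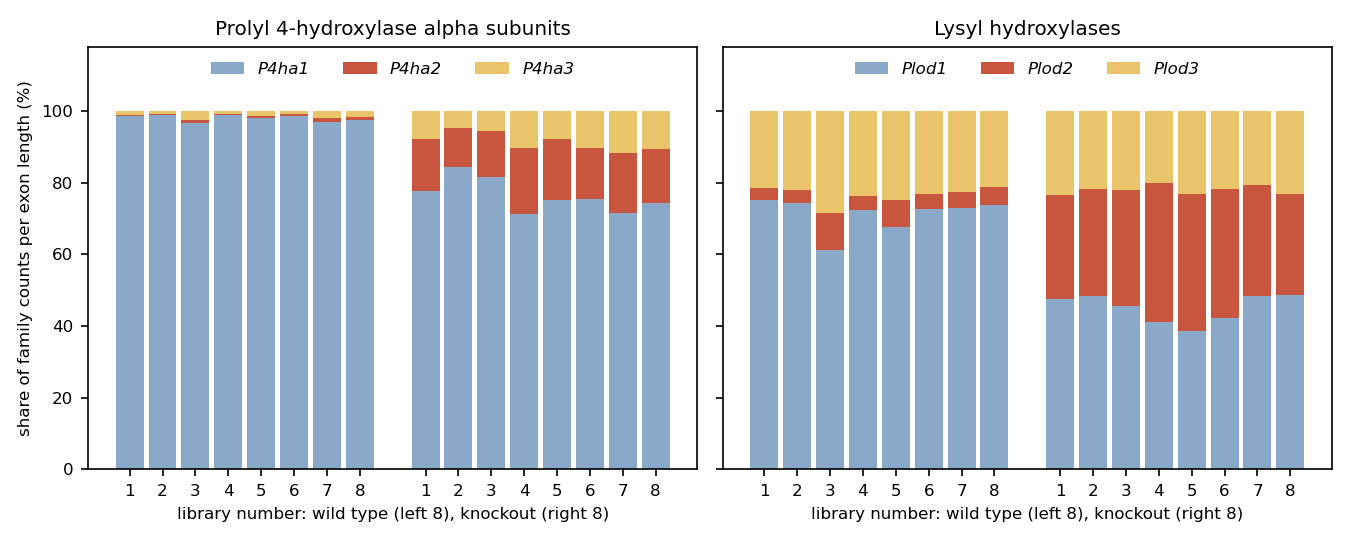
Share (%) of each paralogue in the summed counts per exon length of its family, one stacked bar per library, wild type libraries 1 to 8 on the left and knockout libraries 1 to 8 on the right of each panel. P4ha1 fills 98.1% of the wild type and 76.5% of the knockout bars on average; Plod2 goes from 5.28% to 33.0% and Plod3 from 23.4% to 21.9%.

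Of the lysyl hydroxylases, the scarcest, Plod2, and Plod3 rose and Plod1 did not pass. Plod2 ran from 12.3 CPM through a median of 15.2 to 23.0 in the wild type against 142 through 189 to 245 in the knockout. No library of one genotype came near the other. The mean rose 11.9-fold, from 16.2 ± 4.08 to 192 ± 36.1 CPM (log2 change 3.57, SE 0.16, adjusted p = 1.59e-12), on 112 to 295 counts per wild type library and 1675 to 4950 per knockout library. Within the wild type, the highest Plod2 values were those of libraries 3 and 5, at 23.0 and 21.1 CPM.

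Plod3, the enzyme that both hydroxylates and glycosylates lysines, rose 1.69-fold. It ran from 52.5 through 63.5 to 72.7 CPM in the wild type against 86.1 through 105 to 124 in the knockout, without overlap (log2 fold change 0.75, SE 0.08, adjusted p = 1.13e-07). Plod1, the lysyl hydroxylase with the highest level per kilobase in both genotypes, measured 295 ± 60.0 CPM in the wild type against 327 ± 28.9 in the knockout, a log2 difference of 0.15 that did not pass (SE 0.12, adjusted p = 0.306). Its wild type libraries ran from 170 CPM in library 3 to 344, and its knockout libraries from 294 to 362. Scaled by total counts alone, a setting that moves the median of all genes to 0.32, Plod1 came out at 0.47 (adjusted p = 0.000224).

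The within-library ratio of Plod2 to Plod1 counts went from a median of 0.0468 (0.0367 to 0.136) to 0.539 (0.463 to 0.786), a mean log2 difference of 3.40 without overlap (exact permutation test, adjusted p = 0.0002). Plod2 to Plod3 rose by 2.83 on the log2 scale (adjusted p = 0.0002), from a median ratio of 0.224 to 1.79, without overlap. Plod3 to Plod1 rose by 0.57 with overlapping groups (exact permutation p = 0.000466, adjusted p = 0.000524). Per kilobase, Plod2 took 5.28% ± 2.45 of the lysyl hydroxylase signal in the wild type against 33.0% ± 4.17 in the knockout. Plod1 went from 71.4% ± 4.68 to 45.1% ± 3.86, and Plod3 held 23.4% ± 2.37 and 21.9% ± 1.23.

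Exons of 2 of the lysyl hydroxylase genes overlap other genes in GENCODE M21. Plod2 shares 346 bases (6.42% of its exons) with Gm38391, a predicted gene on the opposite strand that rose from 3.56 to 27.2 CPM. Plod3 shares 529 bases (11.7%) with Znhit1, also on the opposite strand, which rose from 19.4 to 33.8 CPM. The strand setting of the counting is not given in the sources used here, so the counts of both pairs are uncertain to that extent. The other 8 genes share no exon with another gene in that annotation.

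P3h1 and Crtap, the partners of prolyl 3-hydroxylation, did not move together across genotypes. P3h1, the catalytic partner, measured 64.6 ± 13.2 CPM in the wild type against 64.8 ± 8.36 in the knockout (log2 difference 0.00, SE 0.11, adjusted p = 0.98), with ranges of 43.3 to 87.8 and 52.8 to 75.9. Crtap, which has no catalytic activity of its own, fell 1.26-fold, from 152 ± 29.8 to 120 ± 15.7 CPM (log2 change -0.34, SE 0.12, adjusted p = 0.021), and the ranges overlapped. The Crtap call was lost with total-count scaling (log2 difference -0.02, adjusted p = 0.849), with the skeletal muscle marker level as a covariate (-0.28, adjusted p = 0.0697) without knockout libraries 5, 6 and 8 and wild type library 8 (-0.35, adjusted p = 0.0639), without the 4 libraries highest in muscle markers (-0.23, adjusted p = 0.184) and with the replicate number as a block (-0.32, adjusted p = 0.0517). Within libraries, P3h1 stood at 0.402 to 0.459 of the Crtap count in the wild type against 0.468 to 0.635 in the knockout, a log2 difference of 0.34 without overlap (exact permutation test, adjusted p = 0.0002).

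Serpinh1, the chaperone that recognises the folded triple helix, measured 698 ± 125 CPM in the wild type against 645 ± 125 in the knockout. The log2 difference of -0.11 did not pass (SE 0.12, adjusted p = 0.474), and it was 0.20 with total-count scaling (adjusted p = 0.128). Its lowest, median and highest libraries were 521, 688 and 915 CPM in the wild type against 523, 599 and 851 in the knockout, so the 2 groups covered almost one range.

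**Figure D3:**
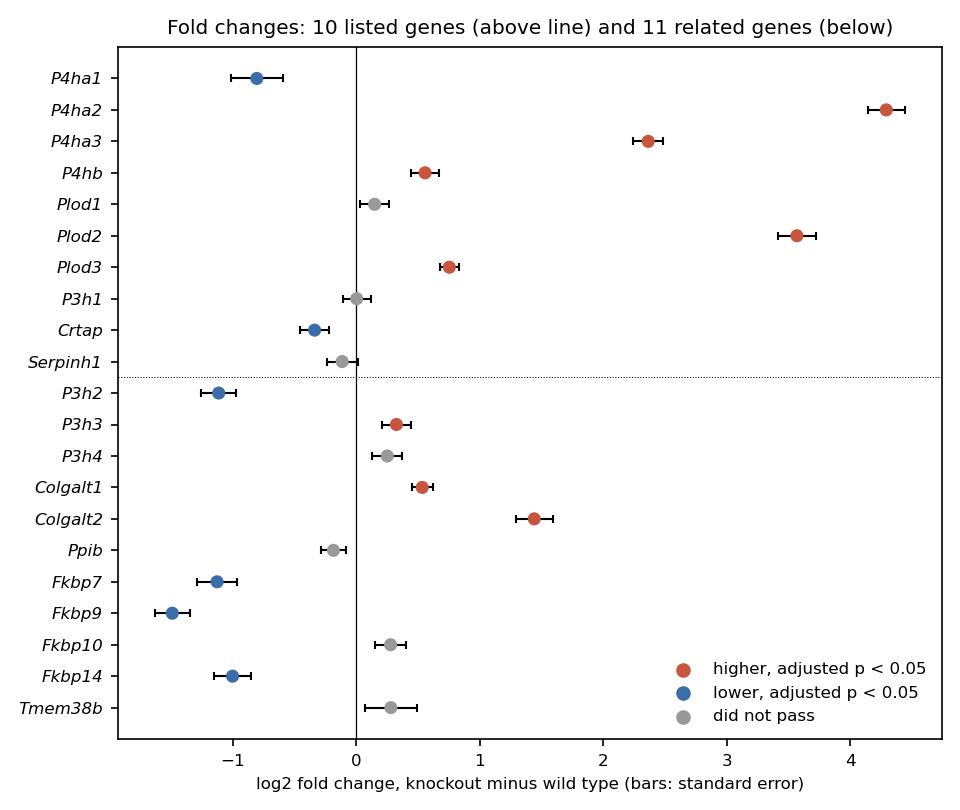
Log2 fold change (knockout minus wild type) with its standard error for the 10 genes above the dotted line and 11 further genes of collagen modification below it; red passed the threshold upward, blue downward and grey did not pass. P4ha2 at 4.29, Plod2 at 3.57 and P4ha3 at 2.37 lie far right of all others.

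On a per-length scale (CPM per kilobase of exon), the order of the 10 genes in the wild type was led by Serpinh1 at 286 ± 51.0, P4hb at 234 ± 31.6 and P4ha1 at 205 ± 67.4. The ranges of these neighbours overlapped. Crtap followed at 85.5 ± 16.8 and Plod1 at 43.6 ± 8.87, each clear of its neighbours, then P3h1 at 16.8 ± 3.43 and Plod3 at 14.0 ± 1.30, which overlapped. Plod2 at 3.00 ± 0.76, P4ha3 at 2.34 ± 0.55 and P4ha2 at 1.13 ± 0.27 closed the list. Plod2 and P4ha3 overlapped there, whereas P4ha3 was above P4ha2 in 8 of 8 libraries.

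In the knockout P4hb led at 344 ± 66.2, above Serpinh1 at 264 ± 51.0 in all 8 libraries, and P4ha1 came next at 117 ± 37.0. Crtap measured 67.7 ± 8.83, Plod1 48.3 ± 4.27 and Plod2 35.6 ± 6.69. Plod3 at 23.6 ± 2.77 and P4ha2 at 22.2 ± 4.00 did not separate, with Plod3 above in 5 of 8 libraries. P3h1 at 16.9 ± 2.17 and P4ha3 at 12.1 ± 1.26 were last, without overlap between them. By exon length, P4ha2 thus moved from place 10 to place 8 and Plod2 from place 8 to place 6. The knockout order depends on the length used: per kilobase of the longest transcript, P4ha2 at 45.2 ± 8.15 came before Plod3 at 32.5 ± 3.82, and Plod1 at 79.8 ± 7.05 before Crtap at 71.7 ± 9.35, while the wild type order was the same.

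Type I collagen, the bulk of tendon matrix and the main substrate of these enzymes, fell in the knockout. Col1a1 went from 153500 ± 45290 to 79640 ± 24140 CPM (log2 change -0.95, SE 0.22, adjusted p = 0.0017) and Col1a2 from 108000 ± 30040 to 39820 ± 8701 (log2 fold change -1.44, SE 0.20, adjusted p = 6.01e-06). Relative to the summed Col1a1 and Col1a2 counts of the same library, 9 of the 10 genes were higher in the knockout by exact permutation tests (adjusted p between 0.0002 and 0.000823). Since the denominator fell, 87.2% of all 14803 tested genes were higher on this ratio at an unadjusted exact p under 0.05, so the count is near the background, and the median difference of all tested genes was 1.13 on the log2 scale (quartiles 0.88 and 1.38). The mean log2 differences were 5.41 for P4ha2, 4.69 for Plod2, 3.49 for P4ha3, 1.86 for Plod3, 1.66 for P4hb, 1.29 for Plod1, 1.13 for P3h1, 0.99 for Serpinh1 and 0.79 for Crtap. Groups overlapped for Serpinh1 and Crtap and for none of the other 7, where 12.2% of all tested genes were higher without overlap. P4ha2, Plod2, P4ha3, Plod3 and P4hb lay above the upper quartile of all genes, Plod1, P3h1 and Serpinh1 between the quartiles, and Crtap and P4ha1 below the lower one. P4ha1 did not pass: its ratio differed by 0.31 with overlapping groups (exact permutation p = 0.198, adjusted p = 0.198), and by 0.61 with Col1a2 alone as the denominator (adjusted p = 0.0138). These 10 ratios share 1 denominator and are not independent.

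**Figure D4:**
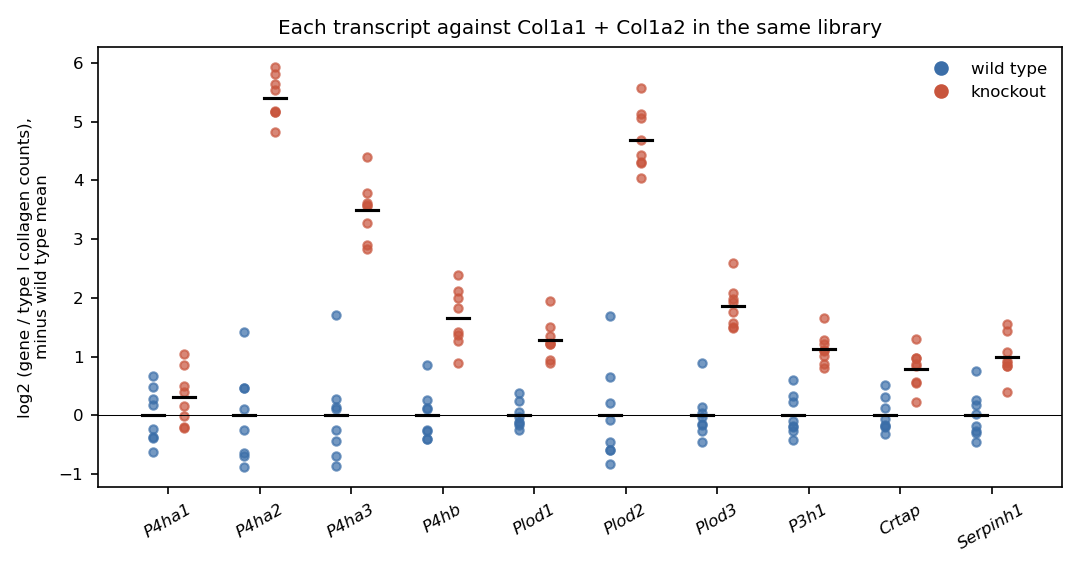
Log2 ratio of each gene's counts to the summed Col1a1 and Col1a2 counts of the same library, minus the wild type mean, for 8 wild type (blue) and 8 knockout (red) libraries; black bars are group means. The knockout mean is above the wild type mean for all 10 genes, by 0.31 for P4ha1 and by 5.41 for P4ha2, beside a median of 1.13 over all tested genes. For all 10 genes the highest blue point is that of wild type library 3, which has the least type I collagen of its group.

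Within each genotype, the level of each gene was compared with that of type I collagen over 8 libraries, 20 relations in all with exact permutation p-values. On Pearson's r, 6 of the 20 passed after adjustment: Plod1, Plod3 and Crtap positively and Plod2 negatively in the wild type, and Plod1 and P3h1 positively in the knockout. Such relations were not computed for all tested genes, so the count of 6 has no background to be read against. Plod1 in the wild type had r = 0.953 (exact permutation p = 0.00293, adjusted p = 0.0195) and Spearman's rho = 0.833 (exact permutation p = 0.0154, adjusted p = 0.147). Plod2 in the wild type had r = -0.87 (exact permutation p = 0.00104, adjusted p = 0.0195) and rho = -0.786 (exact permutation p = 0.0279, adjusted p = 0.147). None of the 20 passed on Spearman's rho after adjustment. None passed on r once the 2 libraries farthest from the median collagen level were left out, wild type 3 and 5 or knockout 1 and 6. Plod1 then gave r = 0.479 (exact permutation p = 0.333) and Plod2 r = -0.741 (exact permutation p = 0.106). In the remaining 6 libraries r was 0.479 for Plod1 and 0.467 for Plod3 in the wild type. For the others r kept its sign at a size of 0.558 to 0.764. None of these relations was resolved by 6 libraries over a narrower collagen range.

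After the mean of its genotype was subtracted from each library, P4ha1, P3h1, Crtap and Serpinh1 varied together over the 16 libraries. Pearson's r was 0.915 between P3h1 and Crtap, 0.906 between P4ha1 and Serpinh1, 0.838 between Crtap and Serpinh1 and 0.702 between P4ha1 and P3h1. The pattern was not particular to these genes. P4hb had r of 0.723 with P4ha1, 0.707 with Serpinh1, 0.692 with Crtap and 0.562 with P3h1. Crtap had r of 0.7 with Plod1 and 0.672 with Plod3. Among the genes that rose most, r was 0.671 between P4ha2 and Plod2 and 0.467 between P4ha2 and P4ha3. P4ha1 and P4ha2 had r = -0.0897, and P4ha3 and Plod1 r = -0.712. These are descriptions over points that share a library and its scaling.

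By the same measure, each gene was set against 13679 tested genes of sufficient level to find its nearest patterns. P4hb was closest to Ddost, an oligosaccharyltransferase subunit of the ER (r = 0.961), and to P3h4 (r = 0.938). Crtap and P3h1 shared Slc38a10 as their closest gene (r = 0.96 and 0.945), followed by Tmem214 for Crtap (0.953) and Tmem184b for P3h1 (0.934). P4ha1 was closest to Tent5a (0.957) and Galnt5 (0.93), and Serpinh1 to Bambi (0.954) and Ccdc186 (0.938). Plod1 was closest to Adamts2, which cleaves the amino propeptide of procollagen (0.942), and C1qtnf6 (0.938). P4ha2 was nearest to Proser2 (0.841) and Chst3 (0.825), and P4ha3 to Chit1 (0.894) and Lfng (0.831). Plod2 was nearest to Msln and Vamp4 (both 0.916), and Plod3 to Ckb (0.875) and Clmp (0.868). Of these neighbours, Proser2 rose from 4.22 to 32.6 CPM in the knockout (log2 fold change 2.95, adjusted p = 6.02e-12), while Msln fell from 25.4 to 7.66 CPM (-1.73, adjusted p = 2.06e-05).

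Other enzymes and chaperones of collagen modification in the ER also went both ways. Against 25.6% of all tested genes up and 22.7% down, 3 of 11 such genes rose, 4 fell and 4 did not pass. Their median log2 fold change was 0.25. Without the 4 libraries highest in muscle markers, 5 rose and 4 fell with a median of -0.11, and with the muscle covariate the counts were again 5 and 4 with a median of -0.03, so the sign of the median is not stable. Colgalt2, a collagen galactosyltransferase that glycosylates hydroxylysine, rose from 4.97 ± 1.53 to 13.5 ± 1.73 CPM (log2 change 1.44, adjusted p = 1.44e-07) and Colgalt1 from 96.6 ± 13.7 to 140 ± 14.6 (0.53, adjusted p = 3.89e-05). P3h3, a partner in lysine hydroxylation, rose by 0.33 (adjusted p = 0.0299), a call lost when any one of wild type libraries 3, 5 and 7 or knockout libraries 1, 2 and 3 was left out (0.25 to 0.31, adjusted p 0.05 to 0.0649) and with the replicate number as a block (0.33, adjusted p = 0.065). The prolyl 3-hydroxylase P3h2 fell from 266 ± 39.8 to 123 ± 32.4 CPM (-1.11, adjusted p = 2.79e-06). The peptidyl-prolyl isomerases Fkbp9 (1474 ± 308 to 525 ± 92.3 CPM, -1.49), Fkbp7 (-1.13) and Fkbp14 (-1.001) fell too, with adjusted p of at most 1.98e-05.

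The others of these 11 did not pass: Ppib, which encodes cyclophilin B (-0.18, adjusted p = 0.148), Fkbp10, an isomerase that acts with PLOD2 (0.28, adjusted p = 0.08), P3h4 (0.25, adjusted p = 0.0964) and Tmem38b, an ER cation channel (0.28, adjusted p = 0.282). Fkbp10 and P3h4 passed without the 4 libraries highest in muscle markers (0.42, adjusted p = 0.0248, and 0.41, adjusted p = 0.0205). In GENCODE M21, exons of P3h2, Ppib, Colgalt1, Fkbp10, Fkbp14 and Tmem38b overlap those of other genes, so their counts are uncertain. Among the ER folding, collagen and lysyl oxidase genes named below, this also holds for Hsp90b1 and Loxl3. Exons of Pdia4, Lox, Col3a1 and Col4a1 overlap over at most 1.44% of their length. Ppib was 0.12 with total-count scaling, and Tmem38b was -0.17 without the 4 libraries highest in muscle markers, a change of sign in each case.

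Of 12 general ER folding genes, 4 rose and none fell, against 25.6% and 22.7% of all tested genes, and the median was 0.18. Ero1a, the oxidase that recharges protein disulfide isomerases, rose from 19.2 ± 1.10 to 146 ± 24.1 CPM without overlap (log2 fold change 2.93, SE 0.09, adjusted p = 6.8e-15). Hsp90b1 rose by 0.67 (adjusted p = 0.000271) and Pdia4 by 0.32 (adjusted p = 0.0102). Under total-count scaling 10 of the 12 rose. Of 12 genes listed under procollagen export, a list that includes the transcription factor gene Creb3l1, 4 fell and none rose. The same shares of all tested genes are the background. Among those that fell were Mia3, the cargo receptor TANGO1 (-0.39, adjusted p = 0.000382), Sec31a (-0.38, adjusted p = 0.00114) and Creb3l1 (-0.42, adjusted p = 0.0372). The Creb3l1 call was lost with the muscle covariate (-0.35, adjusted p = 0.104), without the 4 libraries highest in muscle markers (-0.25, adjusted p = 0.185) and with total-count scaling (-0.10, adjusted p = 0.493). That direction turned under total-count scaling, where 5 rose and none fell, and without the 4 libraries highest in muscle markers 2 fell.

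Among 16 collagen chains, 5 rose, 6 fell and 5 did not pass, with a median of -0.33, against 25.6% up and 22.7% down over all tested genes. Col3a1, the fibrillar chain of repair tissue, rose from 1539 ± 302 to 5716 ± 666 CPM (1.89, adjusted p = 1.72e-10), and Col5a2 rose by 1.10 (adjusted p = 1.93e-09). The basement membrane chain Col4a1 rose by 1.38 (adjusted p = 0.0022), with 85.3 to 129 CPM in the wild type libraries against 88.0 to 555 in the knockout, and by 0.87 (adjusted p = 0.0234) with the muscle covariate or 0.79 (adjusted p = 0.0122) without the 4 libraries highest in muscle markers. Besides Col1a1 and Col1a2, Col11a2, a chain typical of cartilage, fell from 1201 ± 317 to 147 ± 87.3 CPM (-3.03, adjusted p = 4.57e-06). Of the 5 lysyl oxidases, which start the cross-links that hydroxylysines shape, Loxl1 rose (0.98, adjusted p = 1.89e-07), and Loxl4 (-0.80, adjusted p = 0.00252), Lox (-0.51, adjusted p = 0.0125) and Loxl3 (-0.33, adjusted p = 0.0328) fell. With total-count scaling Lox was at -0.20 (adjusted p = 0.237) and Loxl3 at -0.01 (adjusted p = 0.927). Without the 4 libraries highest in muscle markers Lox was at -0.38 (adjusted p = 0.129), and Loxl3 at -0.34 (adjusted p = 0.0846), as large as in all libraries.

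Markers of other cells moved with genotype. Their counts are to be read against 25.6% of all tested genes higher and 22.7% lower. Summed endothelial markers (11 listed, 8 tested, 6 higher) were 29.8 to 49.9 CPM in the wild type against 37.7 to 508 in the knockout. Cldn5, Robo4, Tie1, Emcn and Flt1 were at 0 in 5, 4, 3, 2 and 1 wild type libraries and in no knockout library. Knockout library 2, at 37.7 CPM, lay within the wild type range of this sum. Yet Pecam1, Egfl7 and Robo4, 3 of the 8 tested, were higher in every knockout library than in any wild type library. Pecam1 was at most 2.02 CPM in the wild type and at least 4.59 in the knockout. P4ha2, P4ha3, Plod2 and Plod3 had no overlap between genotypes, so any knockout library is above every wild type library in them. Knockout library 2 had 142 CPM of P4ha2, 30.6 of P4ha3, 178 of Plod2 and 108 of Plod3. P4ha1 was 727 CPM there. Summed erythroid markers of that library were 505 CPM, against a wild type maximum of 50.7.

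Mural markers (8 listed, 7 tested, 4 higher, 1 lower) summed to 354 to 473 CPM in the wild type against 328 to 1485 in the knockout, and Kcnj8 was at 0 in 4 wild type libraries. Erythroid markers (6 listed, 5 tested, all 5 higher) summed to 15.1 to 50.7 and 77.8 to 562 CPM. Macrophage markers (7 tested, 4 higher) summed to 994 to 1397 and 1172 to 1629 CPM. Chondrocyte markers (6 tested, 3 higher, 2 lower) summed to 1868 to 2811 and 989 to 2168, and Schwann cell markers (5 listed, 4 tested, 1 higher) to 21.5 to 33.7 and 21.3 to 74.8. Adipocyte markers (5 listed, 1 tested, 1 higher) summed to 0.29 to 1.73 and 0.68 to 55.9 CPM. Keratinocyte markers (5 listed, 1 tested, 1 lower) stayed between 2.18 and 3.96 CPM, with Krt1 and Krt15 at 0 in all 16 libraries.

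Skeletal muscle markers (12 tested, 1 higher) summed to 52.2 to 4397 CPM in the wild type against 160 to 8912 in the knockout, highest in wild type library 5 and knockout libraries 6, 7 and 8. Knockout library 5, lowest of its group at 160 CPM, had the most P4ha2 (180 CPM) and the most Plod2 (245 CPM). Its erythroid (554 CPM) and Schwann cell (74.8 CPM) marker sums were above every wild type library. Without those 4 libraries, a setting chosen after the data were seen, the 5 rises kept their calls. Neither fall did: P4ha1 then differed by -0.60 (adjusted p = 0.0567) and Crtap by -0.23 (adjusted p = 0.184). The part of these other cells in any of the rises or falls was not tested.

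**Figure D5:**
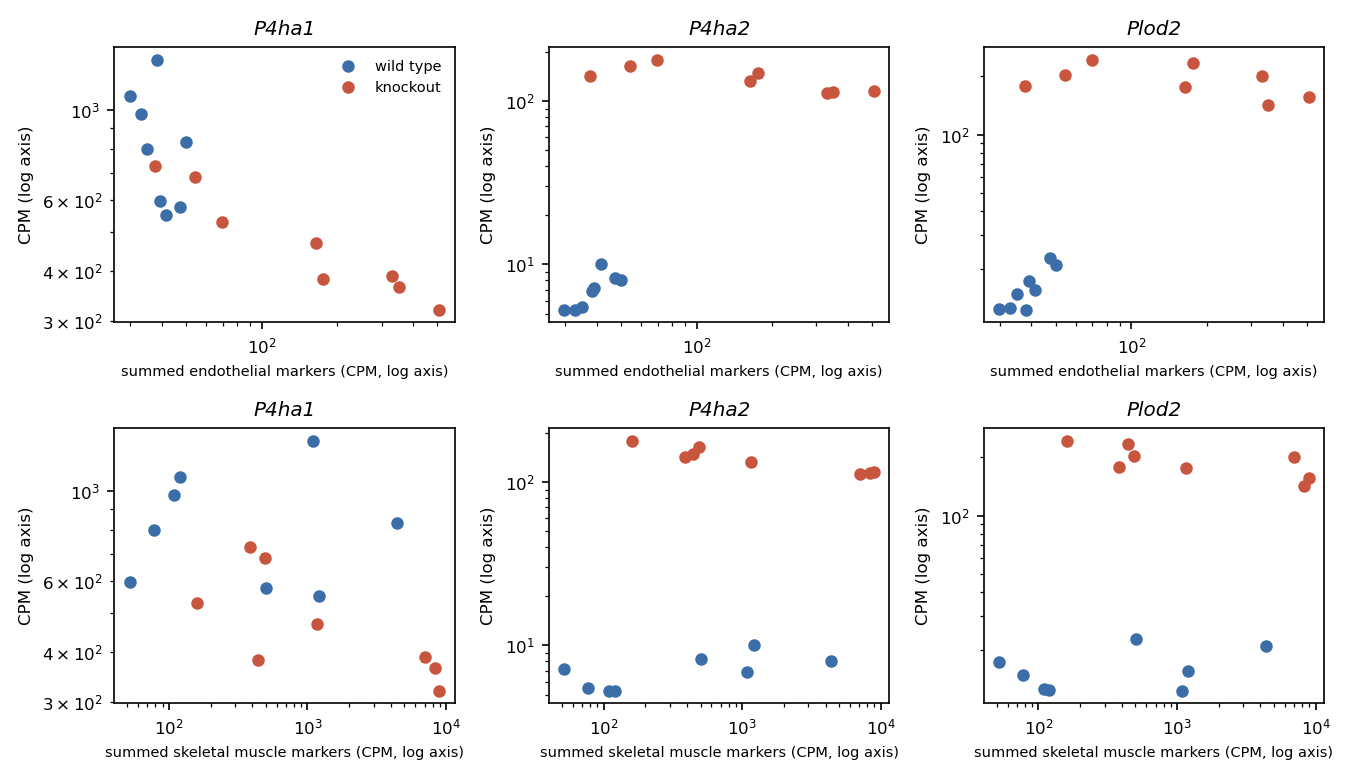
CPM of P4ha1, P4ha2 and Plod2 (log axis) against summed endothelial markers (top) and summed skeletal muscle markers (bottom), both in CPM on a log axis, in 8 wild type (blue) and 8 knockout (red) libraries. Knockout library 2, at 37.7 CPM, is the one knockout library within the wild type range of summed endothelial markers. Every knockout library lies above all wild type libraries in P4ha2 and Plod2. P4ha1 is lowest in knockout library 7, which has the most of both marker sums.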

How the data were processed

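RNA was measured in 16 libraries of mouse tail tendon fascicles, 8 wild type and 8 knockout by their titles. The authors deposited raw counts per gene, 1 column of whole numbers per library, headed matchCounts per the file headers. The submitters' processing notes name kallisto, featureCounts and the build GRCm39, with no role or version; the annotation and the strand setting are not given in the sources used here. Symbols were found for 25614 of the 25719 identifiers. Ero1a and Ero1b were found under older symbols.

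Genotypes were compared with the quasi-likelihood test of edgeR 4.0.16 in R 4.3.3 (robust, 2-sided, TMM scaling, default expression filter on genotype, genotype as the only term), with Benjamini-Hochberg adjustment over 14803 tested genes and a threshold of 0.05. CPM use TMM-scaled library sizes; log2 CPM use a prior count of 2. Standard errors were computed from the F statistic. Within-library ratios used counts plus 0.5 and exact permutation tests (scipy 1.17.1). Exon lengths and overlaps came from GENCODE M21 (GRCm38), a build other than that of the counts, so no positions of counted genes are given; promoters came from RefSeq on GRCm38.p6. A floor of 3 counts corresponded to 0.160 to 0.286 CPM and covers counting error only. The fit and the permutation test were tried on simulated data. In the simulated counts far fewer genes changed than here, so they do not cover the choice of scaling.

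The genes, the related lists, the marker lists and the tests were chosen with earlier results of these data known. Named are the 10 genes, Col1a1, Col1a2, all genes of collagen modification, the up to 3 largest changes each way past the threshold in the other lists, and the 2 nearest patterns of each gene; Vhl and single markers are named as checks. Alternatives were DESeq2 1.42.0 size factors and Wald test, total counts, TMM without the 20 most abundant genes, other filters, limma-voom (limma 3.58.1), a muscle covariate, a replicate block, other pseudocounts and denominators, and libraries left out. Replicate numbers did not pair the libraries: the correlation of same-numbered deviations ran from -0.397 to 0.394.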

Additional observations from a re-analysis of the deposited data

Results flagged for a closer look

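Of 94 checks of a single library against the other 7 of its genotype, 6 found a value whose gap to the nearest exceeded Dixon's critical share of the group's range, where chance gives about 4.7. All 6 were wild type replicate 3, and they are not independent, since 4 involve type I collagen. On the log2 CPM scale its Crtap was 6.58 (next lowest 7.11), its Fkbp10 7.05 (7.63), its Col1a1 16 (16.92) and its Col1a2 15.51 (16.42). Its log2 ratio of P4ha3 to type I collagen was -13.4 (next highest -14.8) and that of Plod3 to type I collagen -11.1 (-11.8). Without this library the log2 fold change of P3h1 was -0.07 (adjusted p = 0.576).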

How the results depend on the processing

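Of 1143 recomputed values, 1075 were classed as unchanged. Tested values had to keep their direction and side of the threshold, and shares to move by less than 1 SD. Counts of genes were classed by a looser rule on their ratio, under which 9685 genes with total-count scaling stood as unchanged from 7151. P4ha2, P4ha3, P4hb, Plod2 and Plod3 passed, upward, under all 27 alternatives: their log2 fold changes ran from 4.23 to 4.58 for P4ha2, from 2.30 to 2.65 for P4ha3 and from 0.48 to 0.87 for P4hb. P4ha1 fell in all 27 (-0.91 to -0.49) and passed in 26, the exception being -0.60 (adjusted p = 0.0567) without the 4 libraries highest in muscle markers. Total-count scaling called 9685 genes, 85.4% of them higher, against 7151 and 53.0% in the reported fit. It gave 0.47 for Plod1 (adjusted p = 0.000224), 0.32 for P3h1 (adjusted p = 0.00631), -0.0216 for Crtap, 0.20 for Serpinh1 and 0.12 for Ppib. Crtap also lost its call at -0.28 (muscle covariate), -0.35 (without knockout libraries 5, 6 and 8 and wild type library 8) and -0.23 (without the 4 libraries highest in muscle markers). The count of genes among the 10 that fell was then 1 under total counts, the muscle covariate and the former set of libraries, and 0 under the latter. P3h1 turned to -0.0115 with DESeq2 size factors, -0.0115 with the DESeq2 Wald test and -0.00951 with limma-voom, and ran from -0.0699 to 0.0788 with 1 library left out. Tmem38b turned to -0.0336 with the muscle covariate and -0.17 without the libraries highest in muscle markers.

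With the replicate block, 7010 genes passed, and among the 10 the fall of Crtap did not (-0.32, adjusted p = 0.0517), which left 1 fall, and P3h3 did not pass (0.33, adjusted p = 0.065); 1 of 8 wild type libraries correlated best with the knockout library of its own number. The P4ha1 ratio to Col1a2 alone was 0.61. With the longest transcript as length, shares in the wild type and the knockout were 97.2% and 65.2% for P4ha1, 1.22% and 25.5% for P4ha2 and 20.4% and 19.7% for Plod3. With no length, they were 0.94% and 21.5% for P4ha2, 78.2% and 52.4% for Plod1 and 17.15% and 17.01% for Plod3. Without the 2 libraries farthest from the median collagen level, the knockout correlations of P4hb and Plod2 with type I collagen became 0.0498 and 0.0915. Unless stated, the cause of a change was not tested. Depth limits the scarce wild type values of P4ha2 and P4ha3 most.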
